A study of Homo sapiens with 12 samples.

Results

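The HOX genes were examined as 39 members of 19970 RefSeq protein-coding genes on the GRCh38 build. Members were taken by symbol alone, as HOXA, HOXB, HOXC or HOXD followed by a number, with no measured value. They comprised 11 HOXA genes in chr7:27092993-27200091, 10 HOXB genes in chr17:48528526-48728750, 9 HOXC genes in chr12:53938831-54056030 and 9 HOXD genes in chr2:176087487-176190907. The value of a gene was its covered length, the bp of DNA under H3K27ac peaks within 5 kb either side of its better covered end, so that it could not exceed 10000 bp. A gene was tested if at least 2 libraries had any coverage, which 33 of the 39 members and 15509 of all genes met. HOXC11, HOXC12, HOXC13, HOXD8, HOXD9 and HOXD10, with coverage in 1 library or none, were not tested. The rule lets a gene pass on the coverage of a single group, so counts of called members describe the tested genes and not all 39.

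HOX genes encode homeodomain transcription factors that give cells their position along the body axis. They lie in 4 clusters in which the order of the genes follows the order of their use, from anterior genes with low numbers to posterior genes with high numbers, and genes of the same number in different clusters are paralogs. HOX proteins bind DNA with TALE cofactors of the PBX and MEIS families, Polycomb complexes keep the clusters silent, trithorax complexes and retinoic acid oppose this, and H3K27ac, an acetylated histone, marks active promoters and enhancers. Adult epithelial lines often keep part of the HOX code of their origin, and pancreatic tumours are known for altered HOX expression.

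H3K27ac was mapped by ChIP-seq in 12 libraries of CFPAC1 and MiaPaCa2, established lines from human pancreatic ductal adenocarcinoma, in 6 groups of 2 libraries (n = 2 throughout unless stated). The bulk lines were untreated or received 1000 U/ml of human interferon beta (IFN-β, a type I interferon) for 2 h. CFPAC1 was also grown as clones isolated by dilution after infection with the lentiCRISPRv2 plasmid, here called wild-type clones, or with that plasmid bearing wild-type Cas9 and a guide RNA against IRF1, an interferon-induced transcription factor, here called IRF1 knockout clones. All clones therefore carry the vector, and no clone was treated with IFN-β. The labels do not say whether bulk libraries of a group came from separate cultures, so p-values measure the spread between these libraries, which may be technical. The 2 lines were grown in different media, and line and medium cannot be told apart. H3K27ac peaks do not read the CRISPR edit, and the knockout was taken from the labels.

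The lists held 59896 to 109834 peaks covering 63.6 to 94.8 Mb per library, and read depth is unknown. CFPAC1 carried peaks at epithelial genes, with all 8 epithelial markers covered in all 8 libraries and a summed coverage of 42340 to 61268 bp. In MiaPaCa2, EPCAM, CDH1, KLF5 and GRHL2 were at 0 bp in all 4 libraries, the other 4 markers including the keratins KRT8, KRT18 and KRT19 were covered, and the sum was 30339 to 36041 bp. PTPRC, which marks blood cells, was at 0 bp in all 12 libraries. Which instrument (HiSeq2000 or NextSeq500) read which library is not given, so no batch could be tested.

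Promoters of 4 member loci are printed to show the contrast between the lines, since peaks of every library of 1 line reached them and peaks of the other did not. Each is printed as the 300 bases around a RefSeq start (GRCh38.p14), 5′ to 3′ on the strand of the gene, with the CCAAT box (CCAAT, or ATTGG on the other strand) and the TATA box (TATAAA) in capitals. They are HOXA6 at chr7:27147725-27148024 and the upstream start of HOXA10 at chr7:27179812-27180111, covered in CFPAC1, and HOXA4 at chr7:27130708-27131007 and the start that HOXC4 and HOXC5 share at chr12:54016638-54016937, covered in MiaPaCa2. The HOXA genes lie on the minus strand and the HOXC genes on the plus strand.
HOXA6: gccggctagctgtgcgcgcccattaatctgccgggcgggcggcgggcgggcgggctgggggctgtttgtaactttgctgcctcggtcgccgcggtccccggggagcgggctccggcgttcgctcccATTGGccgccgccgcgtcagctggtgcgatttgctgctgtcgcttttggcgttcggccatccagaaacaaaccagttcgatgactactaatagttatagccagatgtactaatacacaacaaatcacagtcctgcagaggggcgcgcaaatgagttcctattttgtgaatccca
HOXA10: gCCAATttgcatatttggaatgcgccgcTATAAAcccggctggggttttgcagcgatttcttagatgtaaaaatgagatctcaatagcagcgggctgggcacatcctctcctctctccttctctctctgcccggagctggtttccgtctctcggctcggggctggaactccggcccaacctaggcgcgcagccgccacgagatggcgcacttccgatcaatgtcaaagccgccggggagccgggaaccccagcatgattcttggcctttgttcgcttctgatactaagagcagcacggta
HOXA4: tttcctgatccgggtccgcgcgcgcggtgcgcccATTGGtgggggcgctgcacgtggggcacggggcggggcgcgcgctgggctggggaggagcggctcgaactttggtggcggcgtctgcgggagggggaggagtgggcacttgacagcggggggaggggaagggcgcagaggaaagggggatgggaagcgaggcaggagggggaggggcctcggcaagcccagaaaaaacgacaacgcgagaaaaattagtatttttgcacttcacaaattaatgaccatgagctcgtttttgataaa
HOXC4 and HOXC5: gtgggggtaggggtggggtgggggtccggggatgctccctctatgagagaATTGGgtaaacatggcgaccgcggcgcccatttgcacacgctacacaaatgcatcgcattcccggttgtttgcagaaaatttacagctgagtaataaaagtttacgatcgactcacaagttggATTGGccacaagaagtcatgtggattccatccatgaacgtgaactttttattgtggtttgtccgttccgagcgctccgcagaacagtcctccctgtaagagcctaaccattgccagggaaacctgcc

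The HOXA6 promoter lay under peaks over all 300 bases in all 8 CFPAC1 libraries, clones included, and at 0 bases in all 4 MiaPaCa2 libraries. At the HOXA10 start, 142 and 300 bases were covered in untreated CFPAC1, 141 and 12 in treated CFPAC1, 300 in each of the 4 clones and 0 in each MiaPaCa2 library. The HOXA4 promoter had 147 and 111 covered bases in untreated and 56 and 131 in treated MiaPaCa2, and none in the 8 CFPAC1 libraries. At the HOXC4 and HOXC5 start, 300 and 189 bases were covered in untreated and 208 and 300 in treated MiaPaCa2, again with none in CFPAC1. These 4 loci were chosen because the libraries of the 2 lines did not overlap there, so that is no result. The share of all promoters that separate the lines in this way was not computed. A start of HOXA3, chr7:27150901-27151200, also separated the lines, with 97 to 300 covered bases in the 8 CFPAC1 libraries and 0 in MiaPaCa2. Other HOXA3 starts were covered in both lines. The RefSeq promoter table matched 20 of the 39 members, with 26 distinct promoters, and those of HOXA2, HOXA7, HOXA9, HOXA13, HOXD3, HOXD8, HOXD10, HOXD11, HOXD12 and HOXD13 had no peak over them in any library. CCAAT was found on either strand in 17 of the 26 HOX promoters (65.4%) and in 34.7% of all 22011 promoters of the same length, and TATAAA in 5 (19.2%) and 9.49%. TGATTNAT, a composite PBX-HOX element, was found in 2 of the 26 (7.69%) and in 2.06% of all, while TGANTCA (AP-1) was in none of the 26 and in 6.16% of all. The interferon element, searched as GAAA followed after any 2 bases by GAAA, was in none of the 26 and in 3.16% of all. A match of letters is a description and no evidence of binding, and neighbouring HOX promoters are related by descent.

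**Figure D1:**
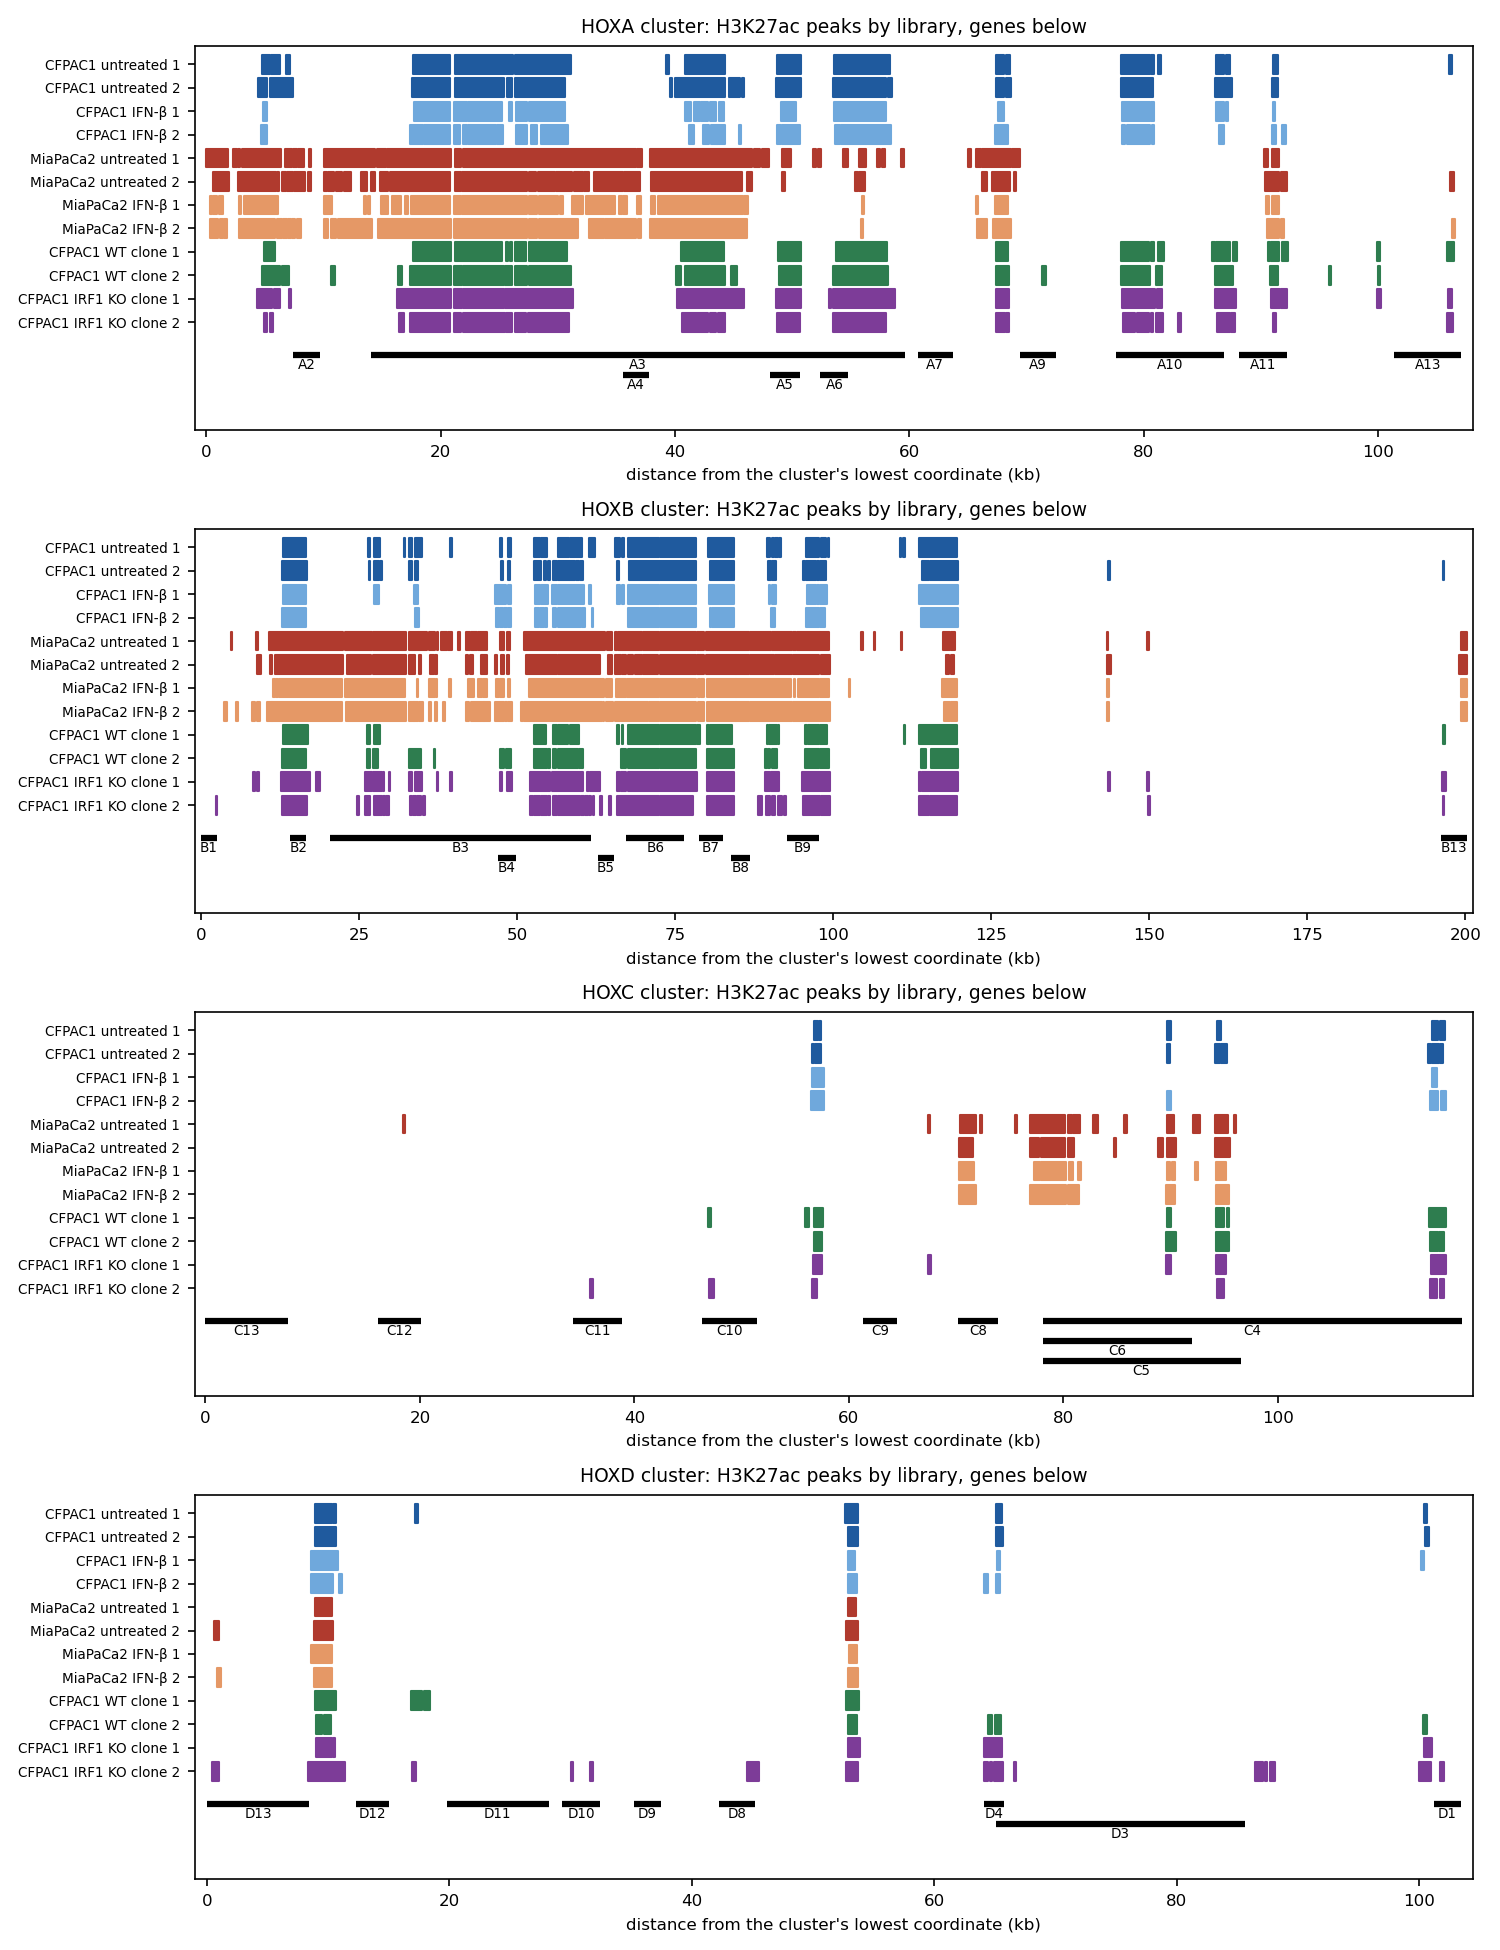
H3K27ac peaks across the 4 HOX clusters. The horizontal axis is the distance in kb from the lowest coordinate of each cluster, each row is 1 of the 12 libraries, coloured blocks are peaks and the black bars below are HOX genes. MiaPaCa2 rows are filled over most of HOXB2 to HOXB9 and most of the stretch from the left end of HOXA3 up to HOXA4. Over HOXA2 itself they hold short broken peaks or, in treated replicate 1, none. Within HOXA10 only CFPAC1 rows hold peaks, mostly near its left end, and much of the gene is empty.

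As whole clusters, HOXB and HOXC had more covered DNA in MiaPaCa2 than in CFPAC1 and HOXD had less. HOXB held 77.0 ± 5.10 kb (SD, n = 4 bulk libraries, treated and untreated) in MiaPaCa2 and 38.8 ± 1.94 kb in CFPAC1, a ratio of 1.99. HOXC held 8.15 ± 1.59 kb and 2.45 ± 0.684 kb, a ratio of 3.32, and HOXD 2.50 ± 0.333 kb and 3.47 ± 0.0739 kb, a ratio of 0.722. For each of these 3 clusters the 8 libraries of the 2 lines did not overlap, which gave the smallest p that 4 against 4 libraries allow (two-sided exact permutation p = 0.0286, and 0.0381 after Benjamini-Hochberg adjustment over the 4 clusters).

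HOXA differed less, with 42.5 ± 7.32 kb in MiaPaCa2 and 28.3 ± 4.46 kb in CFPAC1 (ratio 1.5, two-sided exact permutation p = 0.0571, adjusted 0.0571, n = 4 against 4). Its lowest MiaPaCa2 library, treated replicate 1, had 33.29 kb and its highest CFPAC1 library, untreated replicate 2, had 33.30 kb. The lines overlapped by these libraries alone, which differ in treatment. Within a treatment they did not overlap. Untreated MiaPaCa2 had 51.19 and 43.14 kb against 30.71 and 33.30 kb in CFPAC1, and treated MiaPaCa2 33.29 and 42.35 kb against 24.15 and 24.89 kb. The permutation tests of all 4 clusters pooled treated and untreated libraries of a line and took no account of treatment. The same data as a share of each library's covered DNA gave a HOXA ratio of 1.72 (adjusted exact permutation p = 0.0381, n = 4 against 4) and a HOXD ratio of 0.827 (adjusted 0.0857), so the calls for HOXA and HOXD turn on how library size is treated. CFPAC1 libraries had more covered DNA in all than MiaPaCa2 libraries in the untreated groups (89.8 ± 7.15 against 75.0 ± 4.54 Mb, n = 2), and its part in the HOXD difference was not tested beyond that ratio.

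**Figure D2:**
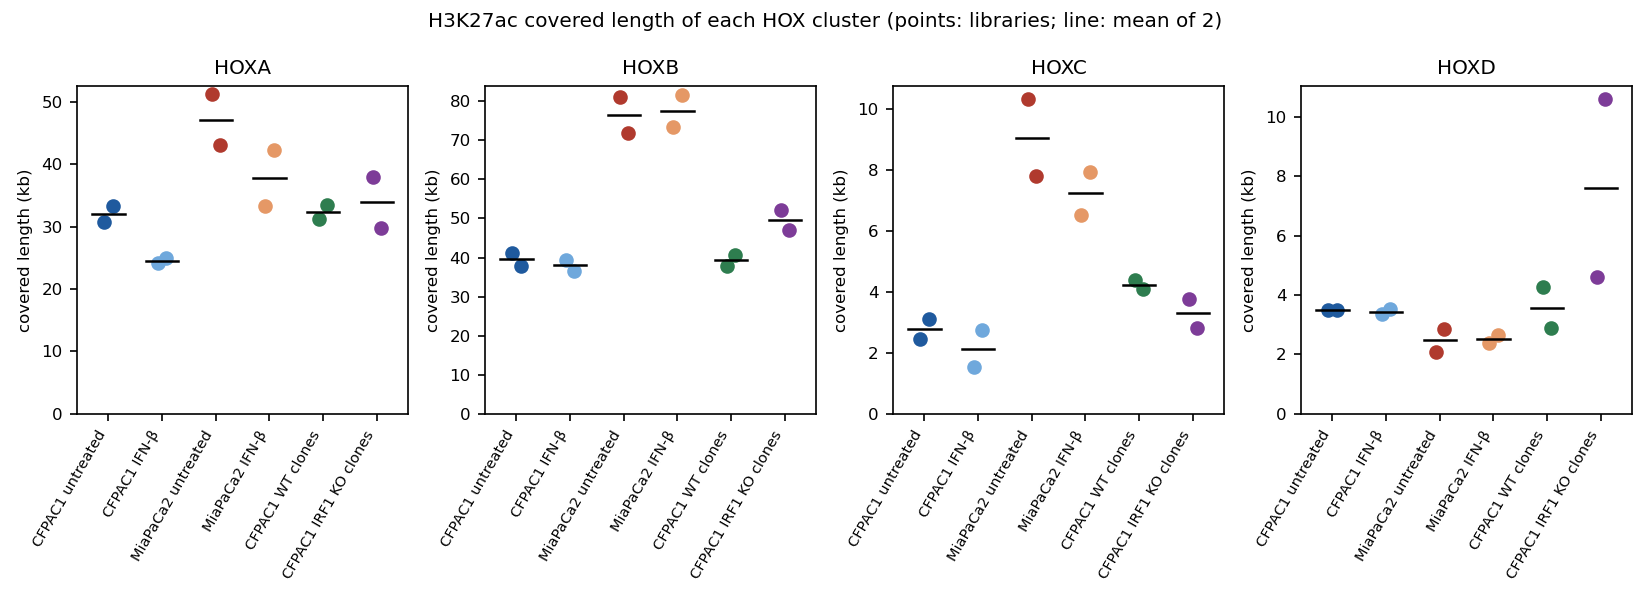
Covered length of the 4 clusters in each library. The vertical axis of each panel is kb of the cluster under peaks from 0, points are the 12 libraries by group and short lines are group means. The 4 MiaPaCa2 bulk points of HOXB lie between 71.8 and 81.7 kb and the 4 CFPAC1 bulk points between 36.6 and 41.1 kb.

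Gene by gene, 23 of the 33 tested HOX genes differed between the untreated lines, 19 with more and 4 with less coverage in MiaPaCa2. Over all genes tested, limma called 48.9% between the untreated lines, 29.0% higher and 19.9% lower. Between the treated lines 20 of 33 were called, 16 higher and 4 lower, beside 42.5% of all genes (24.6% higher, 17.9% lower). The share of members called higher is above these backgrounds, and the share called lower is not. The 16 and the 4 of the treated comparison were also called, in the same directions, in the untreated one, whereas 20.2% of all genes were called higher and 15.4% lower in both. The median log2 difference, MiaPaCa2 minus CFPAC1 on the log2(bp + 500) scale, was 0.96 over the 33 members and 0.14 over all genes when untreated, and 0.58 and 0.10 when treated. Coverage did not overlap between the 4 MiaPaCa2 and 4 CFPAC1 bulk libraries at 25 members, 19 higher and 6 lower in MiaPaCa2, beside 23.1% and 16.1% of all 19970 genes. Windows of neighbouring genes often overlap: the 39 windows form 20 groups, of which 12 hold 1 gene, so members are not independent.

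**Figure D3:**
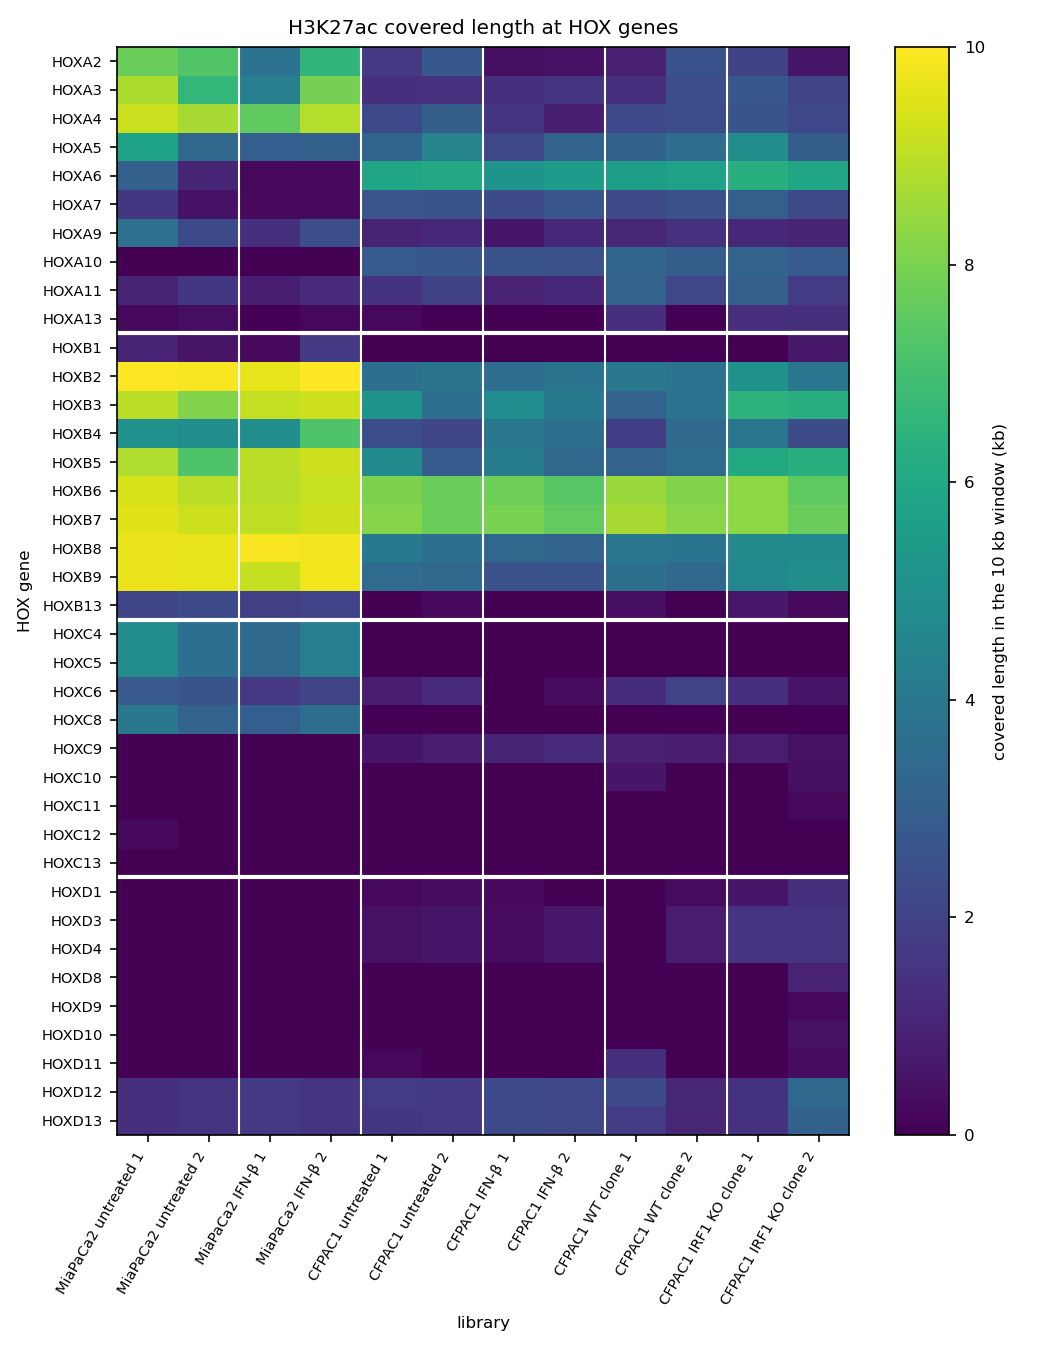
Covered length of HOX genes in all 12 libraries. Rows are genes in cluster order, columns are libraries by group, and colour is the covered length in kb within 5 kb of the better covered gene end, from dark (0) to bright yellow (10 kb). HOXB2 to HOXB9 are brightest in the MiaPaCa2 columns, HOXA6 and HOXA10 are brighter in the CFPAC1 columns, and most HOXC and HOXD rows are dark.

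In the HOXB cluster all 10 genes had more coverage in untreated MiaPaCa2. HOXB1, a hindbrain gene and an early target of retinoic acid, was at 0 bp in all 4 CFPAC1 bulk libraries, at 975 and 518 bp in untreated and at 257 and 1700 bp in treated MiaPaCa2. HOXB2, its neighbour, had 3657 and 3859 bp in untreated CFPAC1, 3567 and 3849 bp in treated CFPAC1, 10000 and 9908 bp in untreated MiaPaCa2 and 9625 and 10000 bp in treated MiaPaCa2. Both genes separated the lines in every bulk library. Among the CFPAC1 clones, IRF1 knockout clone 2 had 678 bp at HOXB1, and the other clones had 0 bp. The log2 difference between the untreated lines was 1.36 ± 0.108 (SE) at HOXB2 (limma adjusted p = 6.89e-06), and only 20 of all genes had a larger mean coverage than HOXB2 in bulk MiaPaCa2. Its widest peak spanned 10013 to 11587 bp in the 4 MiaPaCa2 libraries and 3330 to 4652 bp in the 8 CFPAC1 libraries. At HOXB1 the difference was 1.35 ± 0.469 (limma adjusted p = 0.0371), a value that rests on the 500 bp offset since untreated CFPAC1 is at 0. The call was lost in 8 of 15 other settings, among them those without any 1 of the 4 untreated bulk libraries. The treated call at HOXB1 (1.36, limma adjusted p = 0.04) was lost without treated CFPAC1 replicate 1 (0.126) or 2 (0.13) or treated MiaPaCa2 replicate 2 (0.302).

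HOXB3 and HOXB5, which share part of their windows, had 5195 and 3612 bp (HOXB3) and 4732 and 2922 bp (HOXB5) in untreated CFPAC1. In untreated MiaPaCa2 the values were 8953 and 8105 bp and 8794 and 7252 bp, and treated MiaPaCa2 had 9098 and 9249 bp and 8973 and 9249 bp. Treated CFPAC1 had 4848 and 4057 bp and 4226 and 3369 bp, so that no CFPAC1 bulk library reached a MiaPaCa2 library at either gene. Untreated differences were 0.96 ± 0.175 at HOXB3 (limma adjusted p = 0.00154) and 1.06 ± 0.198 at HOXB5 (0.0017). HOXB4, known for expanding blood stem cells, had 2396 and 2083 bp in untreated CFPAC1, 4002 and 3640 bp after IFN-β, 5060 and 4885 bp in untreated MiaPaCa2 and 4912 and 7262 bp after IFN-β. It was called between the untreated lines (1.06 ± 0.274, limma adjusted p = 0.01) but not in windows of 2 kb (0.63, adjusted p = 0.415) or without untreated CFPAC1 replicate 2 (0.96, 0.0603), and the treated comparison had an adjusted p of 0.116.

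HOXB6 and HOXB7 were widely covered in both lines. HOXB7 had 8168 and 7767 bp in untreated and 7978 and 7594 bp in treated CFPAC1, 8680, 8251, 8284 and 7727 bp in the clones, and 9512, 9240, 9052 and 9257 bp in MiaPaCa2. HOXB6 had 7386 to 8041 bp in the 4 CFPAC1 and 8931 to 9394 bp in the 4 MiaPaCa2 bulk libraries. The gaps between the lines were small but without overlap, with log2 differences of 0.26 ± 0.0872 at HOXB6 (limma adjusted p = 0.0308) and 0.28 ± 0.0862 at HOXB7 (0.0221) in the untreated comparison. In CFPAC1 these were the most covered HOX genes, with 176 genes above HOXB7 and 196 above HOXB6. The HOXB6 call was lost in 9 of 14 other settings, among them windows of 2 kb (0.02, adjusted p = 0.874) and without any 1 of the 4 untreated bulk libraries (0.0635 to 0.151). The HOXB7 call was lost in 6 of 14, among them windows of 2 kb (0.10, adjusted p = 0.38) and the fits without untreated CFPAC1 replicate 2 (0.131), MiaPaCa2 replicate 1 (0.0665) or MiaPaCa2 replicate 2 (0.0688). Neither was called between the treated lines (adjusted p = 0.0549 at HOXB6 and 0.0694 at HOXB7).

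Coverage was far wider in MiaPaCa2 at HOXB8 and HOXB9, genes of trunk patterning. HOXB8 had 4059 and 3656 bp in untreated and 3377 and 3184 bp in treated CFPAC1, against 9702, 9663, 9903 and 9811 bp in MiaPaCa2. HOXB9 had 3492 and 3382 bp, then 2565 and 2549 bp after IFN-β, against 9720, 9635, 9139 and 9769 bp. Both genes were nearly filled with peaks in every MiaPaCa2 library, and in none of the CFPAC1 libraries. Untreated differences were 1.29 ± 0.0981 at HOXB8 (limma adjusted p = 5.16e-06) and 1.43 ± 0.0793 at HOXB9 (5.61e-07), where windows of 2 kb gave 0.22 (adjusted p = 0.107). HOXB13, a posterior gene set apart from its cluster and best known from prostate, had 0 and 240 bp in untreated CFPAC1, 0 bp in treated CFPAC1, 2081 and 2228 bp in untreated MiaPaCa2 and 1908 and 2010 bp in treated MiaPaCa2. Its highest peak had a fold enrichment of 11.5 to 22.1 in MiaPaCa2, and the untreated log2 difference was 2.18 ± 0.292 (limma adjusted p = 0.000224). PRAC2, next to HOXB13, had 1831 to 2116 bp in MiaPaCa2 and 0 to 240 bp in the CFPAC1 bulk libraries.

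**Figure D4:**
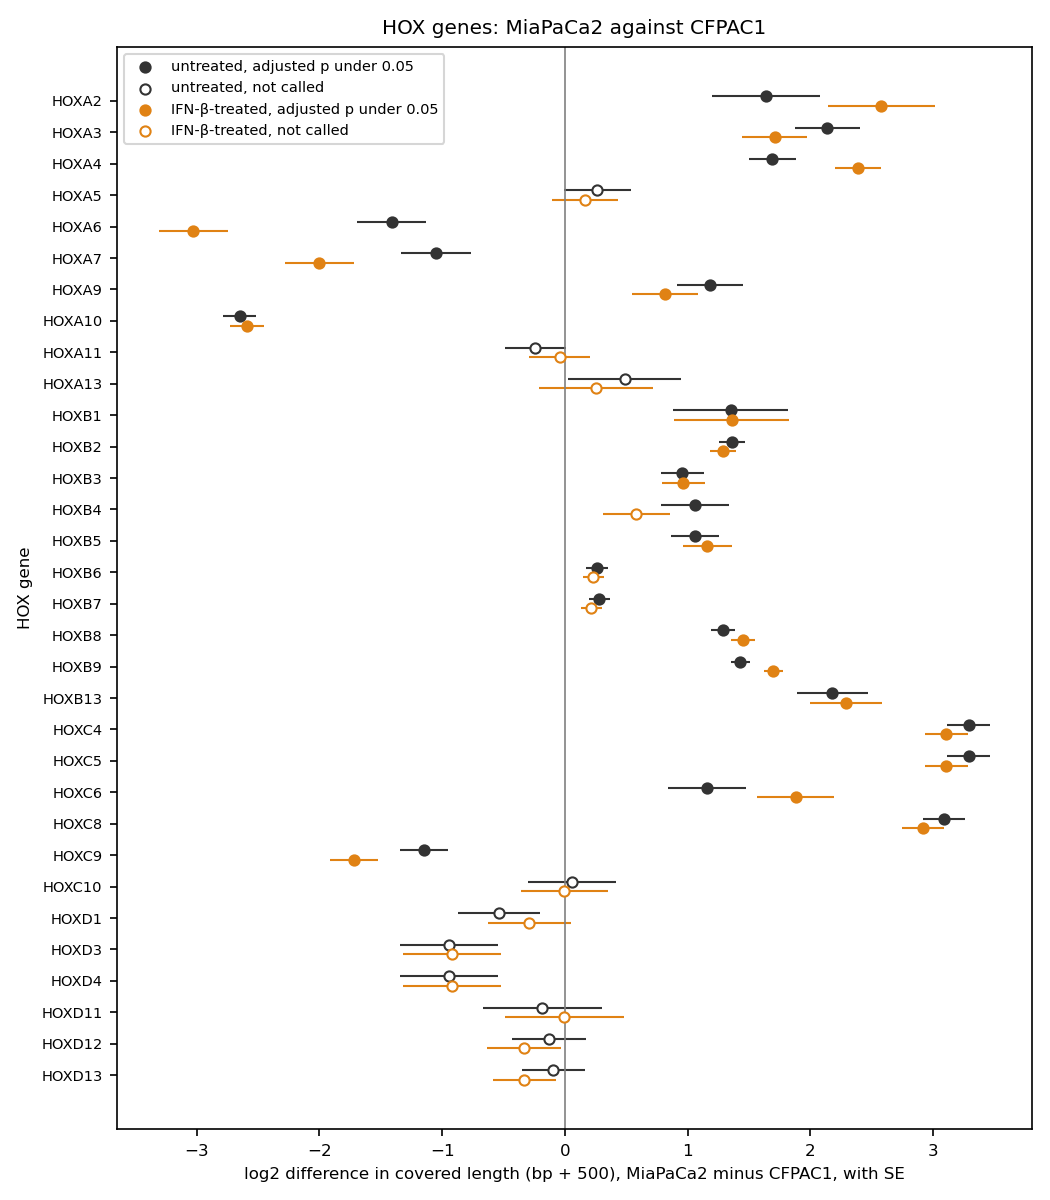
Log2 difference in covered length between the lines for tested HOX genes. The horizontal axis is the limma estimate, MiaPaCa2 minus CFPAC1 on the log2(bp + 500) scale with its standard error, for the untreated and the treated comparison, and filled points were called at an adjusted p under 0.05. All 10 HOXB genes lie right of 0, while HOXA6, HOXA7, HOXA10 and HOXC9 lie left of 0.

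The HOXA cluster held genes of both directions. HOXA2, HOXA3, HOXA4 and HOXA9 had more coverage in MiaPaCa2, HOXA6, HOXA7 and HOXA10 had less, and HOXA5, HOXA11 and HOXA13 were not called. HOXA2, which patterns the neural crest, had 1710 and 2750 bp in untreated and 366 and 486 bp in treated CFPAC1, against 7744 and 7297 bp and 3818 and 6583 bp in MiaPaCa2. All MiaPaCa2 libraries stood above all CFPAC1 libraries, clones included. The log2 difference was 1.64 ± 0.439 untreated (limma adjusted p = 0.0119) and 2.58 treated (0.00111). The untreated call was lost in 4 of 15 other settings: in windows of 2 kb (0.73, adjusted p = 0.196), without CFPAC1 replicate 1 (0.0774), with quantile normalization (0.0557) and without MiaPaCa2 replicate 1 (0.052).

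HOXA4 had 2190 and 2941 bp in untreated CFPAC1, 1540 and 841 bp in treated CFPAC1, 9205 and 8676 bp in untreated MiaPaCa2 and 7549 and 8892 bp in treated MiaPaCa2. This is the gene whose promoter, printed above, was reached by MiaPaCa2 peaks only, and its log2 difference was 1.69 ± 0.19 untreated and 2.39 treated (limma adjusted p = 7.16e-05 and 7.24e-06). The widest HOXA peak, of 14757 bp in untreated MiaPaCa2 replicate 1, ran from within HOXA3 into HOXA4. HOXA3, which directs thymus and parathyroid formation, spans a long locus, and its ends went opposite ways. Its left end, the better covered, had 1345 to 1531 bp in the 4 CFPAC1 and 4267 to 8770 bp in the 4 MiaPaCa2 bulk libraries (2.14 ± 0.263 untreated, limma adjusted p = 0.000129). Its right end, beside HOXA6 and HOXA7, had 3430 to 3818 bp in CFPAC1 and 200 to 1521 bp in MiaPaCa2, and with the annotated start in place of the better covered end the untreated difference was -1.42.

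HOXA5, a regulator of lung and stomach development, had 3224 and 4456 bp in untreated and 2161 and 3194 bp in treated CFPAC1, and 5801 and 3397 bp and 2987 and 3067 bp in MiaPaCa2. The lines overlapped at HOXA5 and it was not called (0.27 ± 0.27, limma adjusted p = 0.445). At HOXA6, the gene beside it, coverage was 5902 and 6024 bp in untreated CFPAC1, 5161 and 5520 bp in treated CFPAC1, 5623 to 6265 bp in the 4 clones, 3050 and 1035 bp in untreated MiaPaCa2 and 200 and 239 bp in treated MiaPaCa2. Every CFPAC1 library stood above every MiaPaCa2 library. The log2 difference was -1.41 ± 0.281 untreated (limma adjusted p = 0.00254) and -3.03 treated (2.08e-05), and the untreated call was lost in windows of 10 kb (-0.42, 0.133). The widest peak at HOXA6 spanned 4234 to 5256 bp with a highest fold enrichment of 13.02 to 35.05 in CFPAC1, and 200 to 695 bp with 3.68 to 5.34 in MiaPaCa2. In CFPAC1 that peak holds the HOXA6 promoter printed above. No MiaPaCa2 peak reached the promoter, and the widest MiaPaCa2 peaks lie at other places in the window.

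HOXA7 had 2634 and 2617 bp in untreated and 2298 and 2686 bp in treated CFPAC1, against 1621 and 494 bp and 262 and 239 bp in MiaPaCa2 (-1.05 ± 0.285 untreated, limma adjusted p = 0.0129). This window reaches towards HOXA6, and the other end of HOXA7 had 575 to 1139 bp in CFPAC1 and 1374 to 3398 bp in MiaPaCa2, so the direction at HOXA7 depends on the end. The untreated call was kept in 8 of 15 other settings, and the losses included those without CFPAC1 replicate 1 or 2 (adjusted p = 0.0562 and 0.0518) or MiaPaCa2 replicate 2 (0.0602). HOXA9, a posterior gene known from leukaemia, had 981 and 1139 bp in untreated CFPAC1, 575 and 1125 bp in treated CFPAC1, 3730 and 2231 bp in untreated MiaPaCa2 and 1374 and 2396 bp in treated MiaPaCa2. The bulk libraries of the lines did not overlap at HOXA9, though wild-type clone 2 (1436 bp) stood above treated MiaPaCa2 replicate 1. The untreated difference was 1.18 ± 0.27 (limma adjusted p = 0.0053), but windows of 10 kb, which take in neighbouring HOXA10, gave -0.24. Its treated call (0.81, adjusted p = 0.0344) was kept in 5 of 15 other settings, lost in 9 (adjusted p up to 0.34) and turned to -0.68 in windows of 10 kb. The losses included those without treated CFPAC1 replicate 1 (0.231) or treated MiaPaCa2 replicate 2 (0.217).

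HOXA10, which patterns the uterus, carried peaks at its left end in CFPAC1 alone. That end had 2839 and 2709 bp in untreated CFPAC1, 2544 and 2466 bp in treated CFPAC1, 3250 and 2944 bp in wild-type clones and 3177 and 2848 bp in IRF1 knockout clones, and 0 bp in all 4 MiaPaCa2 libraries. The limma difference was -2.65 ± 0.136 untreated (adjusted p = 3.46e-07) and -2.59 treated (4.33e-07), with the size set in part by the 500 bp offset. The SE and p-values rest in part on the MiaPaCa2 groups at 0 bp, which add almost no spread. Around the other end, nearer HOXA11, coverage was 893 to 1950 bp in CFPAC1 bulk libraries, 1928 to 2743 bp in the clones and 853 to 1311 bp in MiaPaCa2, and a test on annotated starts gave -0.41 (adjusted p = 0.086) untreated. HOXA11, a limb and uterus gene, was covered in 12 of 12 libraries and was not called. HOXA13, the most posterior and least covered HOXA gene, had 200 and 0 bp in untreated CFPAC1, 0 bp in treated CFPAC1, 234 and 364 bp in untreated and 0 and 215 bp in treated MiaPaCa2. It had 1400 and 0 bp in wild-type clones and 1388 and 1347 bp in IRF1 knockout clones.

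HOXC showed the sharpest contrast of presence and absence at a single start. The window that HOXC4 and HOXC5 share was at 0 bp in all 8 CFPAC1 libraries, clones included, and had 4821 and 3637 bp in untreated and 3425 and 4301 bp in treated MiaPaCa2. The widest peak there spanned 2264 to 3303 bp with a fold enrichment of 18.7 to 25.5. HOXC8, next to it and partly under the same peaks, was at 0 bp in the same 8 libraries and had 4003 and 3193 bp and 2998 and 3606 bp in MiaPaCa2. Limma called both (3.29 ± 0.178, adjusted p = 4.76e-07, and 3.09 ± 0.172, 5.67e-07, untreated), and these log2 values depend on the 500 bp offset. At the far end of HOXC4, chr12:54053202-54053668 was covered in all 8 CFPAC1 and none of the MiaPaCa2 libraries. HOXC6 has the same left end as HOXC4 and HOXC5, with 0 bp in all 8 CFPAC1 libraries and 4821 and 3637 bp and 3425 and 4301 bp in MiaPaCa2. Its tested value was that of its right end, the better covered. That end of HOXC6 had 783 and 1243 bp in untreated and 0 and 311 bp in treated CFPAC1, against 2797 and 2608 bp and 1650 and 2065 bp in MiaPaCa2 (1.16 ± 0.317, limma adjusted p = 0.0133). That untreated call was lost with an offset of 100 bp (adjusted p = 0.0594) and without CFPAC1 replicate 1 (adjusted p = 0.0867) or MiaPaCa2 replicate 1 (0.0572), while the treated call (1.88, adjusted p = 0.00105) was kept in all settings tried.

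HOXC9, a thoracic gene of motor neuron columns, went the other way. It had 577 and 748 bp in untreated CFPAC1, 1049 and 1229 bp in treated CFPAC1, 460 to 884 bp in the clones and 0 bp in MiaPaCa2. The difference was -1.15 ± 0.197 untreated (limma adjusted p = 0.00103) and -1.72 treated (8.63e-05), but windows of 10 kb, which reach HOXC8, turned it to 1.00 and 0.34. HOXC10 had peaks in wild-type clone 1 (621 bp) and knockout clone 2 (426 bp) only, HOXC11 in knockout clone 2 (200 bp) and HOXC12 in untreated MiaPaCa2 replicate 1 (235 bp). HOXC13, a hair follicle gene, was at 0 bp in all 12 libraries. The posterior HOXC genes were thus at or near 0 in both lines.

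The HOXD cluster was sparsely covered, and no HOXD gene was called between the lines. HOXD3 and HOXD4, whose windows hold the same peaks, had 439 and 572 bp in untreated CFPAC1, 289 and 628 bp in treated CFPAC1 and 0 bp in MiaPaCa2 (-0.95 ± 0.397, limma adjusted p = 0.0739 untreated and 0.0884 treated). HOXD1, at the anterior end, had 0 to 316 bp in CFPAC1 bulk libraries and 0 bp in MiaPaCa2. HOXD12 and HOXD13, posterior genes of limb and digit patterning, shared a peak in all 12 libraries. HOXD12 had 1743 and 1717 bp in untreated CFPAC1, 2228 and 2123 bp in treated CFPAC1, 1396 and 1526 bp in untreated MiaPaCa2 and 1717 and 1558 bp in treated MiaPaCa2, and the lines met at 1717 bp. HOXD8, HOXD9 and HOXD10 were covered in knockout clone 2 only, with 966, 230 and 430 bp.

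Stretches that peaks of all 4 libraries of MiaPaCa2 and no CFPAC1 library covered made up 20.6% of the DNA that any library covered in HOXB, against 6.75% over chromosomes 1 to 22 and X. Such stretches summed to 19.6 kb in HOXB, 7.12 kb in HOXA and 4.29 kb in HOXC. The longest was 3579 bp at chr17:48547262-48550840, from between HOXB2 and HOXB3 into HOXB3. Stretches covered in all 8 CFPAC1 and no MiaPaCa2 library summed to 5.35 kb in HOXA, 2.30 kb in HOXB and 0.648 kb in HOXC, and were 8.04%, 2.42% and 4.14% of the covered DNA against 7.43% genome-wide. Among the longer ones, those of HOXA lay at HOXA5, HOXA6, HOXA10 and the right end of HOXA3. Those of HOXB were 524 and 1747 bp long and lay between HOXB9 and HOXB13. Covered in all 12 libraries were 23.3 kb of HOXB, the longest 5191 bp in HOXB6, 12.15 kb of HOXA, mostly within HOXA3, 1.64 kb of HOXD and none of HOXC. HOXD held no stretch of a single line. By whole regions, 16 of 85 cluster regions were covered in both untreated MiaPaCa2 and no untreated CFPAC1 library and 7 the reverse, beside 10.3% and 21.0% of regions genome-wide. Between treated libraries the counts were 17 and 7 of 73, beside 11.7% and 22.7%. With any 1 library left out, gained and lost regions together numbered 29 to 53 untreated and 27 to 50 treated, as fewer libraries then had to agree.

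The clusters also hold microRNA genes, whose mature products repress other genes through bases 2 to 8, the seed. Mature sequences from RefSeq are shown for 6 hairpins around which the bulk libraries of the lines did not overlap, with the seed in capitals. The 5p products of MIR196A1 (HOXB), MIR196A2 (HOXC) and MIR196B (HOXA) share the seed AGGUAGU. The products shown of MIR10A (HOXB, inside HOXB3), MIR615 (HOXC) and MIR3185 (HOXB, beside HOXB13) differ in seed from these and from each other. The 5p product of MIR10B (HOXD) was not among the sequences at hand, so its seed was not compared with that of MIR10A.
hsa-miR-196a-5p: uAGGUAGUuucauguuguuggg
hsa-miR-196b-5p: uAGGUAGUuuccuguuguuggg
hsa-miR-10a-5p: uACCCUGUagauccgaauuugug
hsa-miR-615-3p: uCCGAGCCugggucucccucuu
hsa-miR-3185: aGAAGAAGgcggucggucugcgg

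Within 5 kb of the hairpins of the shared seed, coverage went opposite ways in different clusters. MIR196B, which lies between HOXA9 and HOXA10, had 2839 and 2709 bp in untreated CFPAC1, 2544 and 2466 bp in treated CFPAC1, 2738 to 3177 bp in the 4 clones and 0 bp in all MiaPaCa2 libraries. MIR196A2, between HOXC9 and HOXC10, had 577 and 748 bp, 1049 and 1229 bp and 460 to 1213 bp in the same CFPAC1 groups and 0 bp in MiaPaCa2. MIR196A1 in HOXB had 218 and 0 bp and 0 and 0 bp in CFPAC1 bulk libraries, against 742 and 459 bp and 548 and 459 bp in MiaPaCa2. MIR10A had 2396 and 3070 bp in untreated and 4650 and 4222 bp in treated CFPAC1, against 6199 and 6002 bp and 6026 and 7920 bp in MiaPaCa2. MIR615 had 392 and 997 bp and 0 and 0 bp in CFPAC1 bulk libraries, against 2273 and 1648 bp and 1445 and 1501 bp in MiaPaCa2. Hairpins with a printed sequence were chosen because the bulk libraries did not overlap, so that lack of overlap is no result. The share of all microRNA hairpins without overlap was not computed. MIR3185 had 0 and 240 bp and 0 and 0 bp in CFPAC1, against 1647 and 1799 bp and 1514 and 1661 bp in MiaPaCa2. MIR10B, in HOXD, had the values of HOXD3, with 289 to 628 bp in CFPAC1 bulk libraries and 0 bp in MiaPaCa2. These windows share peaks with the HOX windows and were not tested, and coverage says nothing of how much mature microRNA is made.

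Interferon beta changed no HOX gene past the threshold in CFPAC1. Limma called 0 of 33, beside 0.987% of all genes (0.677% higher, 0.309% lower). An unadjusted p under 0.05 was found at 7 members, among them HOXA2, HOXA4, HOXB9 and HOXC6 with lower and HOXB4 and HOXC9 with higher values. The share of all genes at that unadjusted threshold was not computed, here or in the comparisons below, so such counts have no background. At HOXA2, 1710 and 2750 bp stood against 366 and 486 bp after IFN-β (-1.39 ± 0.439, limma adjusted p = 0.216). At HOXB4 the treated libraries held 4002 and 3640 bp, above the 2396 and 2083 bp of the untreated ones (0.80 ± 0.274), and at HOXC9 1049 and 1229 bp, above 577 and 748 bp (0.64 ± 0.197). The adjusted p of the 7 lay between 0.126 and 0.297. Treated and untreated libraries did not overlap at these 3 genes. In all, 4 members were without overlap and higher after IFN-β and 10 were lower, beside 6.93% and 30.3% of all genes, and the total covered DNA was 89.8 ± 7.15 Mb untreated and 76.8 ± 0.183 Mb treated, whose part in these values was not tested. With an equal number of top peaks in each library 3 members were called, HOXA2 and HOXA4 among them, and with peaks at a −log10 q of at least 5 HOXA4 alone.

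In MiaPaCa2 1 of 33 members was called after IFN-β, HOXA6, which fell, beside 0.651% of all genes (0.561% higher, 0.0903% lower). Its coverage was 3050 and 1035 bp untreated and 200 and 239 bp treated, without overlap. An unadjusted p under 0.05 was found at 2 members, HOXA6 and HOXA7, with no share over all genes computed. The HOXA6 call rests on short peaks of low enrichment, and it was kept in 8 of 15 other settings. It was lost without treated replicate 1 (limma adjusted p = 0.242) or treated replicate 2 (0.124) and without centring (0.0501). HOXA7, at 1621 and 494 bp before and 262 and 239 bp after treatment, had -0.87 ± 0.285 (adjusted p = 0.396). Of the 11 HOXA genes, 10 had a lower fitted value after IFN-β, with a median of -0.41, and 9 of the 10 HOXB genes a higher one, with a median of 0.08, where all genes had a median of 0.03. Without overlap, 5 members were higher and 8 lower, beside 6.38% and 16.2% of all genes.

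The response to IFN-β was not shown to differ between the lines at any HOX gene. The test of the difference called 0 of 33 members, beside 0.0580% of all genes (0.0258% higher, 0.0322% lower). An unadjusted p under 0.05 was found at 4, HOXA6, HOXA7, HOXA4 and HOXB9, with no share over all genes computed. At HOXA6 the change in MiaPaCa2 minus that in CFPAC1 was -1.62 ± 0.398 (limma adjusted p = 0.272). That gene was called without untreated MiaPaCa2 replicate 2. No region of the clusters was gained with IFN-β in either line, meaning covered in both treated and no untreated library, beside 2.77% of regions genome-wide in CFPAC1 and 2.30% in MiaPaCa2. Lost regions were 5 of 64 in CFPAC1, beside 6.43% genome-wide, and 3 of 76 in MiaPaCa2, all in HOXA, beside 3.29%. Leaving out any 1 library of a comparison raised the number of gained and lost regions to 9 to 17 in CFPAC1 and 6 to 26 in MiaPaCa2, as fewer libraries then had to agree.

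Clones labelled IRF1 knockout differed from wild-type clones at no HOX gene past the threshold, with 0 of 33 called beside 1.25% of all genes (0.709% higher, 0.542% lower). An unadjusted p under 0.05 was reached by 6 members, all with more coverage in the knockout clones. These lay in HOXB (HOXB3, HOXB5, HOXB9) and HOXD (HOXD1, HOXD3, HOXD4). The share of all genes at that unadjusted threshold was not computed, so the count has no background. The 6 are not independent, as HOXD3 and HOXD4 hold the same peaks and HOXB3 and HOXB5 share part of their windows. HOXB3 had 3152 and 3807 bp in wild-type clones and 6482 and 6290 bp in knockout clones (0.69 ± 0.175, limma adjusted p = 0.114). HOXB5, under some of the same peaks, had 3162 and 3516 bp and 6091 and 6316 bp (0.70 ± 0.198, adjusted p = 0.152). HOXB9 had 3695 and 3420 bp and 4658 and 4958 bp (0.28 ± 0.0793, 0.153). At each of these 3 genes both knockout clones stood above both wild-type clones.

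In HOXD the spread between clones was wide. HOXD3 and HOXD4 had 0 and 762 bp in wild-type clones and 1558 and 1498 bp in knockout clones (1.24 ± 0.397, limma adjusted p = 0.194), and HOXD1 had 0 and 296 bp and 616 and 1336 bp (1.07 ± 0.337, 0.189). Knockout clone 2 held 16 peaks and 10.6 kb in the cluster, where the other 11 libraries held 2.09 to 4.62 kb. Its peak list was the longest of the 12, with 109834 peaks. Knockout clone 1 had 80876 and the wild-type clones 90115 and 80584, and the part of list length in these values was not tested. Over the 39 members, 8 were without overlap and higher in knockout clones and 0 lower, beside 20.1% and 8.93% of all genes, so the 8 are about the background share. Regions covered in both knockout and no wild-type clone numbered 5 of 82, all in HOXB, and the reverse 0, beside 3.36% and 2.62% genome-wide, and the 5 included chr17:48589207-48590298 and chr17:48590398-48591893 at HOXB3 and HOXB5. Leaving out any 1 clone raised the regions to 11 to 29.

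Settings moved the count of called members in the clones. Without centring on the library mean HOXB3 and HOXB9 were called, with 2 kb windows HOXB3 and HOXB5, and with quantile normalization HOXB9. HOXA13 was called without wild-type clone 1, HOXD3 and HOXD4 without wild-type clone 2, and HOXD13 without knockout clone 1. The list of knockout clone 1 began at a −log10 q of 1.372 and the other 11 lists at 1.302 to 1.319, and its part in these values was not tested. Wild-type clones against untreated bulk CFPAC1 gave 0 of 33 members called, with 0 at an unadjusted p under 0.05, beside 0.00645% of all genes. One cluster region, near HOXA13, was gained in those clones of 66 and 0 were lost, beside 1.54% and 4.50% genome-wide, with 8 to 16 when 1 library was left out.

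**Figure D5:**
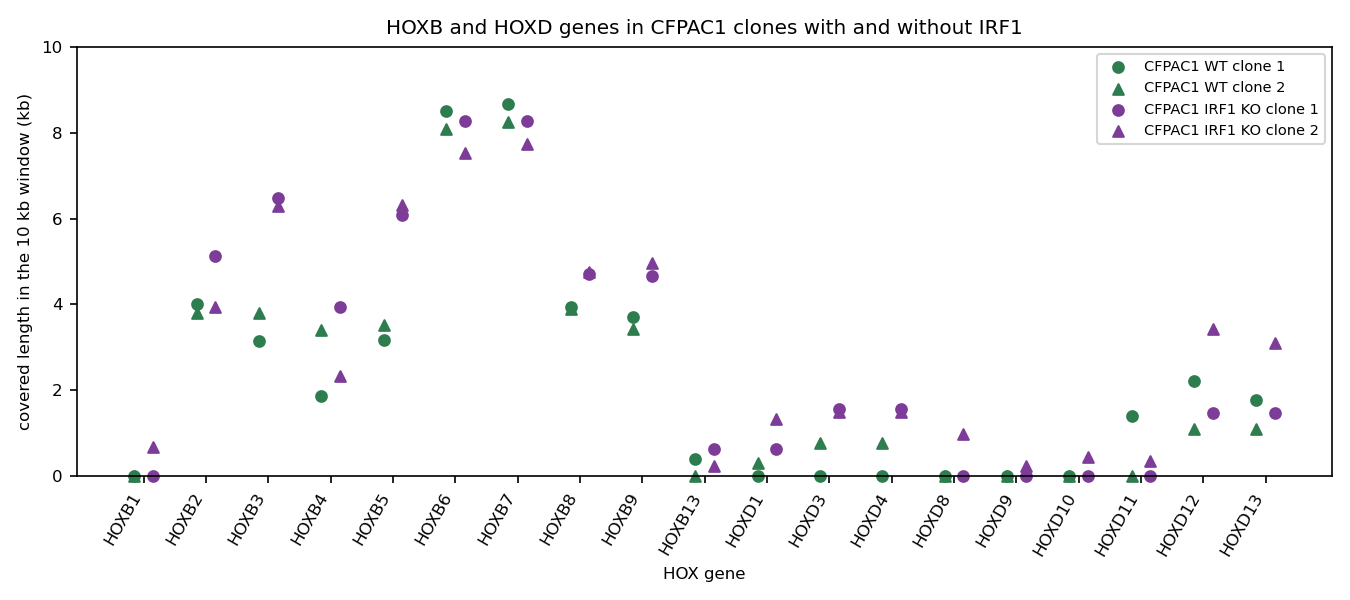
Covered length in the CFPAC1 clones at members of HOXB and HOXD. The vertical axis is the covered length in kb within 5 kb of the better covered gene end, from 0, and points are single clones, 2 wild-type and 2 IRF1 knockout. Both knockout clones are above both wild-type clones at HOXB3 (6482 and 6290 against 3152 and 3807 bp), HOXB5 and HOXB9.

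The partners and regulators of HOX proteins were compared between the untreated lines by lists of genes. Of the TALE cofactors, 1 of 10 tested was higher in MiaPaCa2 (PKNOX2) and 3 were lower, MEIS1 and TGIF1 among them, beside 29.0% and 19.9% of all genes. MEIS1 had 7198, 7035, 7251 and 7105 bp in the CFPAC1 bulk libraries, 7213 to 7478 bp in clones and 0 bp in all 4 MiaPaCa2 libraries (-3.87 ± 0.102, limma adjusted p = 8.66e-09). The size, SE and p-value at MEIS1 rest in part on the groups at 0 bp. The list's median was -0.05 beside 0.14 over all genes.

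Among Polycomb genes 11 of 24 tested were higher and 3 lower, with a median of 0.32, where 29.0% of all genes were called higher and 19.9% lower. CBX2, a reader of the Polycomb mark, was at 0 bp in the 4 CFPAC1 bulk libraries and had 3502, 2189, 1867 and 1993 bp in MiaPaCa2 (2.77 ± 0.411, limma adjusted p = 0.000425), and BMI1 was lower (-1.06 ± 0.167, 0.000619). Against the same background of 29.0% and 19.9%, 7 of 14 trithorax and demethylase genes were higher and 1, KDM6A, was lower. KDM6A, which removes the Polycomb mark, had 4084, 4062, 4497 and 3675 bp in bulk CFPAC1 and 0 bp in MiaPaCa2 (-3.13 ± 0.139, limma adjusted p = 1.31e-07). The sizes, SE and p-values at CBX2 and KDM6A rest in part on the groups at 0 bp. In the list of retinoid, ParaHox and CTCF genes 4 of 15 were higher (CDX1, ALDH1A1, RXRA, CTCF) and 2 lower, shares no larger than the 29.0% and 19.9% of all genes. PDX1, a pancreatic ParaHox factor, had 4223 to 5017 bp in CFPAC1 bulk libraries and 220 to 620 bp in MiaPaCa2, and RARA, a retinoic acid receptor, 5663 to 7724 bp and 0 to 1831 bp. Of 13 tested genes flanking the clusters 5 were higher and 0 lower, beside the same 29.0% and 19.9%. No gene of these lists was called after IFN-β in either line or between the clones.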

How the data were processed

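H3K27ac ChIP-seq of 12 libraries gave 1 deposited narrowPeak file for each library, with no pooling of replicates by the authors. Per the submitters' processing notes, the tools included Trimmomatic 0.38, Bowtie2 2.2.6, SAMtools and MACS2 2.1.0.20150731 on GRCh38. The deposited fold enrichment ratio and −log10 q of each peak are the authors' own values for that library and served to describe or filter peaks. The deposited −log10 p and score were not used for results. The control library, filters and read depth are not given in the sources used here, so no interval that needs a read count was computed. Columns of other samples numbered 0.

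Members and lists were chosen with earlier results of these data known. Results of some genes are not reported here. Values in every library were given for members called, covered in a single line, or with the most or least coverage of their cluster, and genes of the other lists were named only if called. Covered bp within 5 kb of the better covered gene end (mean over 12 libraries) was taken as log2(bp + 500), centred per library, and fitted with limma 3.58.1 (R 4.3.3) in 1 model of 6 groups with a trended prior. P-values were adjusted by the Benjamini-Hochberg method over 15509 genes, with calls made where this was under 0.05. The step was tested on simulated data. A group at 0 bp in both libraries adds almost no spread to the shared estimate, so SE and p-values of such genes rest in part on that floor. Clusters were compared by two-sided exact permutation tests over libraries, with treated and untreated libraries of a line pooled. The gene table gives strand for 15812 genes, and promoter and microRNA sequences were from RefSeq (GRCh38.p14). Replicate numbers did not pair libraries: same-numbered libraries of paired groups had correlations of deviations of -0.153 to 0.205. Alternatives were other windows, offsets, filters, peak thresholds, normalizations and libraries left out. Scripts ran under Python 3.11.15 with scipy 1.17.1, pandas 2.3.3 and numpy 2.4.6.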

Additional observations from a re-analysis of the deposited data

How the results depend on the processing

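Of the 23 members called between the untreated lines, 9 kept direction and call in all settings tried and 4 reversed in at least 1, and of the 20 between the treated lines 12 and 5. With annotated starts only, which 18 tested members have, 8 members were called in each line comparison, and differences were -1.42 untreated and -2.56 treated at HOXA3, 1.02 and 0.77 at HOXA7 and 0.0086 treated at HOXA10. With 2 kb windows HOXA7 was 0.35 untreated, and with 10 kb windows HOXA9 was -0.24 untreated and -0.68 treated and HOXC9 1.00 and 0.34. Windows at another end or of another width hold other peaks. Leaving out 1 library gave 17 to 19 called members between untreated and 18 to 20 between treated lines. After IFN-β, CFPAC1 had 1 called member with peaks at a −log10 q of at least 5 and 3 with equal peak numbers. MiaPaCa2 had 2 at that q, 0 with 10 kb windows, with starts only, without centring, with quantile normalization or with its own 4 libraries alone, and 0 to 2 without 1 library. The difference of responses had 1 at that q and 0 to 1 without 1 library. The clones had 2 with 2 kb windows, 2 without centring, 1 with quantile normalization and 0 to 2 without 1 library. The causes were not tested.

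The HOXA cluster ratio was 1.56 with equal peak numbers, 1.57 with 10 kb added at each end and 1.72 as a share of the library. The HOXD ratio was 0.843 with equal peak numbers and 0.827 as a share. Without 1 library the ratios were 1.40 to 1.61 for HOXA, 1.95 to 2.03 for HOXB, 2.95 to 3.65 for HOXC and 0.687 to 0.761 for HOXD, where 4 against 3 cannot give an adjusted p below 0.0571. Regions gained or lost without 1 library numbered 29 to 53 between untreated and 27 to 50 between treated lines, 9 to 17 and 6 to 26 after IFN-β in CFPAC1 and MiaPaCa2, 11 to 29 between clone groups and 8 to 16 between wild-type clones and bulk, where a rule of peaks over most of the region gave 2. Without centring, the median of all genes moved from 0.04 to -0.10 after IFN-β in CFPAC1 and from -0.05 to 0.06 between the clones, and the share of calls that were higher from 68.6% to 47.2% and from 56.7% to 76.2%. Quantile normalization gave 46.3% between the clones and, after IFN-β in MiaPaCa2, 68.8% in place of 86.1%. With a replicate block the called members were 23 and 20 between the lines, 1 after IFN-β in MiaPaCa2 and 0 elsewhere, so the block changed no count. Covered length records how far peaks reach and not their height, is limited by the window, and read depth, which sets which weak peaks are found, is unknown.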
